A study of Canis lupus familiaris with 25 samples.

Results

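Genes of the tumor necrosis factor (TNF) receptor superfamily, 10 in number, were followed across canine gland tumors. They were taken by symbol from the 24532 genes of the count table, where all 10 were found: TNFRSF18, TNFRSF4, TNFRSF9, TNFRSF1A, TNFRSF1B, TNFRSF12A, TNFRSF19, TNFRSF21, NGFR and EDAR. The receptors of this family are surface proteins that bind trimeric ligands, or neurotrophins in the case of NGFR, and pass the signal on through adaptor proteins. Members with a cytoplasmic death domain (TNFRSF1A, TNFRSF21, NGFR and EDAR) can recruit death domain adaptors, whereas the others mostly recruit TRAF proteins, and both routes can activate the transcription factor NF-κB. Several members are best known from T cells, while EDAR, TNFRSF19 and NGFR are known from the development and upkeep of skin, hair follicles and glands.

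The samples were archival formalin-fixed, paraffin-embedded (FFPE) tumor tissue of dogs of different breeds, sequenced near the 3′ end of each transcript (QuantSeq 3′). Hepatoid gland adenoma (HGA), a benign perianal tumor, was represented by 10 samples, from 5 male and 5 female dogs aged 8 to 14 years, of which 4 were neutered. Apocrine gland anal sac adenocarcinoma (AGASAC), a malignant tumor, was represented by 11 primary tumors, from 6 male and 5 female dogs aged 8 to 12.5 years, of which 9 were neutered, and by 4 lymph node metastases from the dogs of primary tumors 1 to 4, aged 8 to 10 years, of which 3 were neutered. DV200, a measure of RNA fragment length, was 70.5 to 92.7% in HGA, 70.2 to 84.4% in primary AGASAC and 71.8 to 82.9% in the metastases. No treatment was compared. Per the study's methods, tissue beside the tumors was trimmed away and RNA came from entire cross sections of what was left, so a library can still hold stroma and immune cells besides tumor cells. In such bulk samples, fewer cells of a type and less RNA per cell cannot be told apart.

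Counts on genes ranged from 1562347 to 6389555 per library in HGA, from 2581453 to 4218340 in primary AGASAC and from 2857541 to 3289546 in the metastases. Levels are given as library-size-scaled counts (CPM) after TMM scaling over all 25 libraries, and a count of 0 allows up to 3 counts, or 0.539 to 1.88 CPM in HGA, 0.72 to 1.04 in AGASAC and 0.791 to 0.957 in the metastases, counting error only. The labelled tissues were checked against marker genes. In HGA versus AGASAC, 4 of 5 hepatoid gland genes and 3 of 3 tested basal keratinocyte genes (KRT5, KRT14 and TP63) were called higher in HGA. The 5 of 5 simple epithelium genes were called lower. Of all tested genes, 12.6% were called higher and 12.5% lower. HGA 10 stood apart, with a summed level of the hepatoid gland genes of 1605 CPM against a median of 18712 CPM over the HGA. Lymphocyte markers summed higher in the metastases than in the primary tumors of their own dogs. T-cell marker sums were 45.9 to 70.5 CPM against 24.9 to 43.7 CPM, without overlap. B-cell marker sums were 21.1 to 41.2 CPM against 13.5 to 40.9 CPM, higher in 4 of 4 dogs. No T-cell or B-cell marker was called in edgeR, where 0 of all 12629 tested genes were called.

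The first comparison, HGA versus AGASAC, asked how these tumor entities differ. TNFRSF18 and NGFR were higher in HGA, by 61.5 and 34.9 times in the mean level, and TNFRSF21 was lower, with a mean 4.13 times higher in AGASAC. TNFRSF19 was also higher in all HGA but HGA 9. The means of TNFRSF1A, TNFRSF1B and TNFRSF12A were lower in HGA, but none of these genes passed the thresholds, and TNFRSF4, TNFRSF9 and EDAR lay near the limit of detection in most tumors. A gene was called where edgeR's quasi-likelihood test, fitted across 12070 genes, gave a p of 0.05 or less after Benjamini-Yekutieli adjustment together with a log2 fold change (log2FC) beyond −1 or 1. Of the 10 genes, 6 passed the filter on low counts and 3 were called, against 25.1% of all tested genes, with 2 called higher in HGA (12.6% of all tested genes) and 1 lower (12.5%). For TNFRSF18 and NGFR the groups did not overlap, as was the case for 9.24% of all tested genes. TNFRSF18 and NGFR passed the filter through their counts in HGA, so these shares are a description only.

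**Figure D1:**
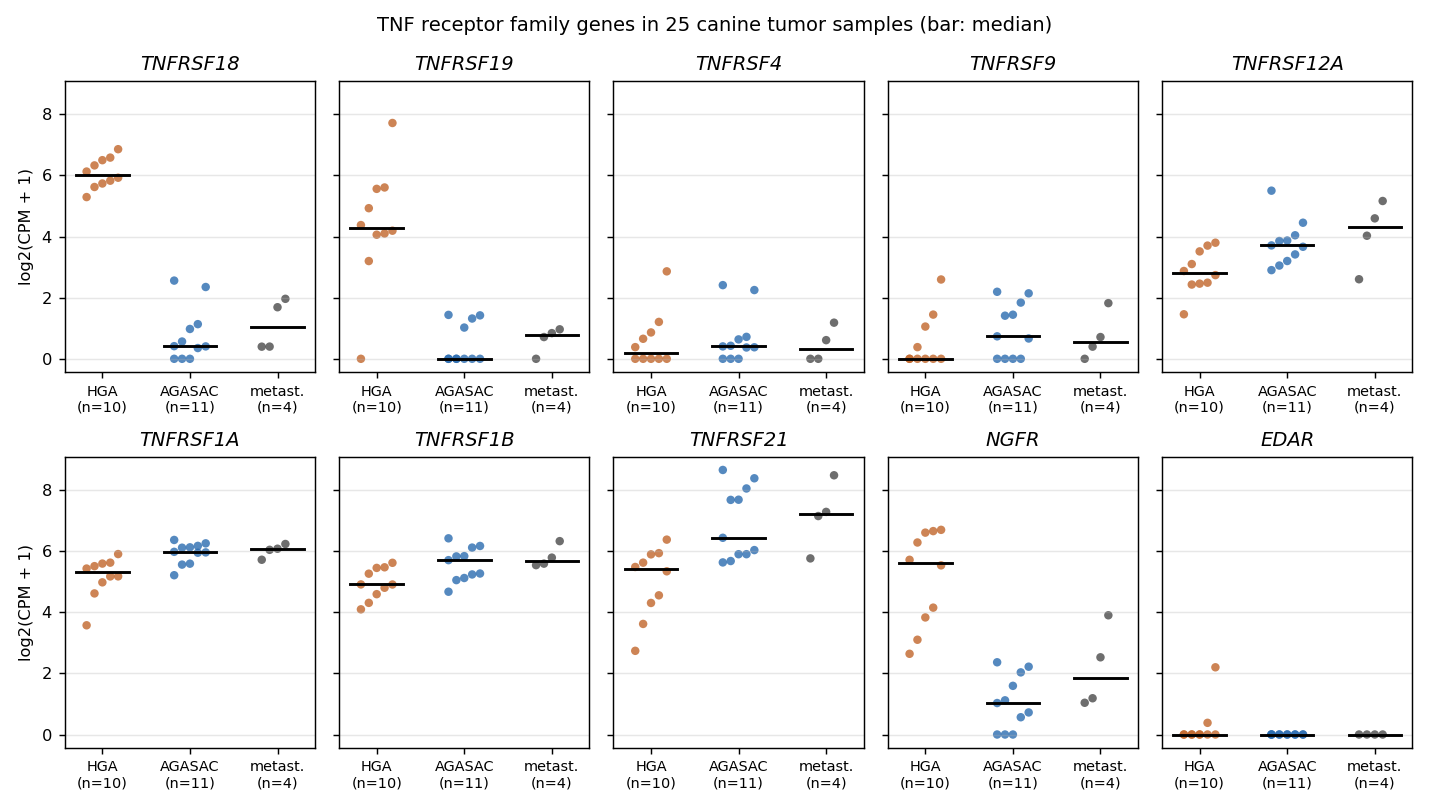
Level of each receptor gene, as log2(CPM + 1) on the vertical axis, in each of the 10 HGA, 11 primary AGASAC and 4 metastases; every point is a sample and the bar is the group's median. TNFRSF18 and NGFR in HGA sit above all primary AGASAC, HGA 9 is the sole HGA at 0 for TNFRSF19, and the AGASAC points of TNFRSF21 leave a gap between 85.7 and 204 CPM.

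TNFRSF18, also called GITR, is a co-stimulatory receptor of T cells and a well-known marker of regulatory T cells. In HGA its level ranged from 38.2 CPM in HGA 7 to 115 CPM in HGA 8, with a median of 64.4 CPM. In primary AGASAC it ranged from 0 to 4.90 CPM, with a median of 0.332 CPM and 3 tumors at 0. Every HGA lay above every AGASAC, and only 3 of 11 AGASAC had more than 3 counts. The mean was 70.3 ± 24.1 CPM (SD, n = 10) in HGA and 1.14 ± 1.71 CPM (SD, n = 11) in AGASAC, a log2FC of 5.89 ± 0.53 (standard error) with an adjusted p of 4.715e-08 in edgeR. Within extraction batches 5, 6 and 8 the log2FC had the same direction, and it was called in batches 6 and 8 but not in batch 5. It was 5.45 ± 1.21 in batch 5 (adjusted p 0.2438), 5.38 ± 0.79 in batch 6 (adjusted p 0.04012) and 6.4 ± 0.79 in batch 8 (adjusted p 0.04788). Batch 7 held only HGA 3 and AGASAC 8 and was not fitted. In the neutered dogs alone the log2FC was 5.98 ± 0.73.

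The summed level of the T-cell markers ranged from 2.46 to 57.2 CPM in HGA and from 17 to 134 CPM in AGASAC, and that of the regulatory T-cell markers from 1.85 to 37.0 CPM in HGA and from 8.59 to 104 CPM in AGASAC. The regulatory T-cell sum was mostly IKZF2 in HGA, with a mean of 16.0 CPM against 0.509 CPM for CTLA4 and 0.0462 CPM for IL2RA. In AGASAC it was mostly IKZF2 (33.4 CPM) and IL2RA (17.5 CPM). None of the 2 tested T-cell markers and the 1 tested regulatory T-cell marker was called, against 25.1% of all tested genes. FOXP3, the transcription factor that defines regulatory T cells, was at 0.697 ± 0.751 CPM (SD, n = 10) in HGA, with 4 of 10 at 0, and at 1.28 ± 1.1 CPM (SD, n = 11) in AGASAC. HGA 6, with the lowest T-cell sum, had 55.9 CPM of TNFRSF18. HGA 8, with the highest T-cell and regulatory T-cell sums among the HGA, had the highest level, 115 CPM. The part of T cells in the level of TNFRSF18 in HGA was not tested. Its ligand gene TNFSF18 was at 0 in 6 of 10 HGA and in 4 of 11 AGASAC, with maxima of 30.1 and 13.3 CPM.

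Within AGASAC, the highest levels of TNFRSF18 were in AGASAC 9 (4.90 CPM, 17 counts) and AGASAC 6 (4.1 CPM, 12 counts). These tumors also had the highest levels of TNFRSF4, or OX40, a co-stimulatory receptor of activated T cells, with 4.32 CPM (15 counts) in AGASAC 9 and 3.76 CPM (11 counts) in AGASAC 6. The other 9 AGASAC had at most 1.2 CPM of TNFRSF18 and at most 0.645 CPM of TNFRSF4. The T-cell markers summed to 60.8 CPM in AGASAC 9 and 115 CPM in AGASAC 6, but AGASAC 7, with the highest sum of 134 CPM, had 0 counts of both receptors. The part of T cells in these levels was not tested.

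TNFRSF4 and TNFRSF9, another co-stimulatory receptor of T cells, did not pass the filter. TNFRSF4 had a median of 0.152 CPM in HGA, where HGA 4 had the highest level at 6.27 CPM, and a median of 0.325 CPM in AGASAC. TNFRSF9 had a median of 0 in HGA, where HGA 8 reached 5.05 CPM, and of 0.665 CPM in AGASAC, where AGASAC 2 was highest at 3.57 CPM. The groups overlapped in both genes, and more than 3 counts were found in 2 of 10 HGA and 2 of 11 AGASAC for TNFRSF4 and in 2 of 10 HGA and 5 of 11 AGASAC for TNFRSF9. A difference was not detectable at this depth, with two-sided permutation tests of log2(CPM + 1) at p = 0.8376 for TNFRSF4 (difference −0.09) and p = 0.3322 for TNFRSF9 (difference −0.40), adjusted p 1 and 0.9714 by Benjamini-Hochberg over the 12 such tests of the receptor genes. Their ligand genes TNFSF4 and TNFSF9 were at most at 1.29 and 3.76 CPM in any primary tumor.

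NGFR, the low-affinity neurotrophin receptor p75, is a receptor of nerve sheath and nerve cells and of basal epithelial cells. In HGA it ranged from 5.24 CPM in HGA 10 to 103 CPM in HGA 4, with a median of 48.5 CPM. In AGASAC it ranged from 0 to 4.15 CPM, with a median of 1.04 CPM and 3 tumors at 0. No AGASAC reached the lowest HGA, although HGA 10 and HGA 7 (7.58 CPM) were close to the highest AGASAC. The means were 51.6 ± 40.0 CPM (SD, n = 10) and 1.48 ± 1.53 CPM (SD, n = 11), a log2FC of 5.09 ± 0.66 with an adjusted p of 1.074e-05 in edgeR. Within extraction batches the log2FC was 5.65 ± 0.58 in batch 5 (adjusted p 0.01494), 5.22 ± 0.95 in batch 6 (adjusted p 0.09467) and 3.29 ± 1.19 in batch 8 (adjusted p 1), and it was 6.18 ± 0.77 in the neutered dogs alone.

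Markers of nerve sheath cells were near 0 in both tumors. Their summed level was at most 5.08 CPM in HGA and at most 1.03 CPM in AGASAC, and SOX10, which defines these cells, was at 0 in all 10 HGA. The basal keratinocyte markers moved with NGFR between the tumors, with sums of 3078 to 13173 CPM in HGA and of 0.293 to 35.4 CPM in AGASAC. HGA 7 had the lowest sum among the HGA, but HGA 9, with the highest, had 45.4 CPM of NGFR, below the median. The part of basal or nerve sheath cells in the level of NGFR was not tested.

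The partners of NGFR in neurotrophin signaling differed as well. NTRK2, the tyrosine kinase receptor of BDNF and NTF4, was at 304 ± 185 CPM (SD, n = 10) in HGA, with a range of 26.3 to 549 CPM, and at 6.00 ± 3.08 CPM (SD, n = 11) in AGASAC, with a range of 1.2 to 10.1 CPM. The groups did not overlap, as was the case for 9.24% of all tested genes. The log2FC was 5.66 ± 0.47 with an adjusted p of 1.085e-08 in edgeR. SORT1, the sorting receptor that binds proneurotrophins together with NGFR, ranged from 48.9 to 137 CPM in HGA and from 1.94 to 25.2 CPM in AGASAC, a log2FC of 2.50 ± 0.28 with an adjusted p of 1.217e-06.

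The neurotrophin genes BDNF and NTF3 were low. BDNF was at 0 in 7 of 10 HGA and 6 of 11 AGASAC, and NTF3 in 5 of 10 and 7 of 11. NTF4 passed the filter, at 8.79 ± 3.70 CPM (SD, n = 10) in HGA and 7.18 ± 3.12 CPM (SD, n = 11) in AGASAC, and it was not called (log2FC 0.29 ± 0.31, adjusted p 1 in edgeR).

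TNFRSF21, or death receptor DR6, is a receptor with a death domain that is widely expressed in epithelia and in nerve cells. In HGA it ranged from 5.67 CPM in HGA 9 to 82.2 CPM in HGA 2, with a median of 41.6 CPM. In AGASAC it ranged from 48.6 to 403 CPM, with a median of 85.7 CPM. The groups overlapped, with 7 of 10 HGA below every AGASAC and 6 of 11 AGASAC above every HGA. The means were 39.1 ± 24.4 CPM (SD, n = 10) and 161 ± 128 CPM (SD, n = 11), a log2FC of −2.04 ± 0.47 with an adjusted p of 0.009604 in edgeR.

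The AGASAC were spread widely in TNFRSF21. Tumors 3, 5, 7, 8 and 9 had 48.6 to 64.6 CPM, within the range of the HGA. Tumor 4 had 85.7 CPM, just above the highest HGA (82.2 CPM), and tumors 1, 2, 6, 10 and 11 had 204 to 403 CPM. The call held whichever of the 21 tumors was left out (log2FC −2.23 to −1.81), but it was lost in the neutered dogs alone (−1.82 ± 0.64, adjusted p 0.4412 in edgeR). It was also lost within each fitted extraction batch (−1.52 ± 0.69 in batch 5, adjusted p 1, −2.0 ± 0.61 in batch 6, adjusted p 0.5278, and −2.27 ± 0.80 in batch 8, adjusted p 0.9993). Fewer samples entered these fits. With extraction batch as a covariate it was called at −1.71 ± 0.43 (adjusted p 0.02942).

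TNFRSF19, also called TROY, is a receptor of epithelial progenitor cells and of the hair follicle. It had 0 counts in HGA 9, where up to 1.31 CPM could have been missed, and 8.18 to 47.8 CPM in 8 other HGA, while HGA 10 had 210 CPM. In AGASAC it was at 0 in 7 of 11 tumors and at most at 1.71 CPM. The 9 HGA with counts lay above every AGASAC, and the medians were 18.5 and 0 CPM. TNFRSF19 did not pass the filter, and the means of log2(CPM + 1) differed by 3.90 (two-sided permutation test with 100000 resamples, p = 8e-05, adjusted p 0.00096 by Benjamini-Hochberg over 12 tests, higher in 9 of 10 HGA). It was called by DESeq2, by edgeR without a filter, and by edgeR when HGA 9 was left out. HGA 10, the highest for TNFRSF19, was the lowest for NGFR and for the hepatoid gland genes and was the only sample of its extraction batch. The part of that batch was not tested.

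EDAR, the ectodysplasin receptor of hair, tooth and skin gland development, was detected with 20 counts (3.59 CPM) in HGA 1 and with 1 count in HGA 7. It had 0 counts in the other 8 HGA, in all 11 AGASAC and in all 4 metastases. The difference between HGA and AGASAC was within what these counts can show (permutation test, p = 0.4305, adjusted p 0.9714). HGA 1 was also the deepest library, with 6389555 counts. The adaptor of EDAR, EDARADD, did not pass the filter but was found in every primary tumor, at 2.62 to 23.5 CPM in HGA and 0.323 to 4.86 CPM in AGASAC, whereas the ligand gene EDA was at 1.25 ± 0.871 CPM (SD, n = 10) and 0.742 ± 0.728 CPM (SD, n = 11).

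TNFRSF1A and TNFRSF1B are the receptors of TNF itself, the former in nearly all cells and the latter mainly in immune and endothelial cells. TNFRSF1A ranged from 10.9 CPM in HGA 9 to 58.9 CPM in HGA 4, with a median of 38.6 CPM, and in AGASAC from 36.1 to 81.6 CPM, with a median of 62.1 CPM. TNFRSF1B ranged from 16.1 to 48.2 CPM in HGA, with a median of 29.1 CPM, and from 24.5 to 84.7 CPM in AGASAC, with a median of 51.2 CPM. The groups overlapped in both genes, with 5 of 10 HGA below every AGASAC for TNFRSF1A and 3 of 10 for TNFRSF1B. Neither gene was called, with a log2FC of −0.71 ± 0.21 for TNFRSF1A (adjusted p 0.08312 in edgeR) and of −0.67 ± 0.24 for TNFRSF1B (adjusted p 0.2157). Their ligand gene TNF was at 0 in 5 of 10 HGA and 2 of 11 AGASAC, and LTA was at 0 in all 10 HGA and in 4 of 11 AGASAC. The macrophage markers summed to 45.0 to 158 CPM in HGA and 70.8 to 209 CPM in AGASAC. Of 6 tested, 1 was called lower in HGA (12.5% of all tested genes). The endothelial markers summed to 196 to 546 CPM in HGA and 48.5 to 227 CPM in AGASAC. Of 4 tested, 1 was called higher in HGA (12.6% of all tested genes), CDH5 (log2FC 1.47 ± 0.38, adjusted p 0.02388 in edgeR). The part of either cell type in the levels of TNFRSF1B was not tested.

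Among the HGA, TNFRSF1B was at 37.4 to 48.2 CPM in the 4 neutered dogs and at 16.1 to 29.1 CPM in the 6 intact dogs, without overlap. It was 1 of 6 tested receptors without overlap, against 2.45% of the 12070 tested genes, and it was singled out after its values were seen. The other receptors overlapped between neutered and intact dogs, for example TNFRSF18 with medians of 84.5 and 54.1 CPM and NGFR with medians of 86.7 and 31.1 CPM. These values were not tested.

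TNFRSF12A, or Fn14, is the receptor of the cytokine TWEAK and is known from injured epithelium and muscle. It ranged from 1.75 CPM in HGA 9 to 12.9 CPM in HGA 2, with a median of 6.00 CPM, and in AGASAC from 6.48 to 44.3 CPM, with a median of 12.1 CPM. Of the HGA, 6 lay below every AGASAC, and the log2FC of −1.07 ± 0.36 was not called (adjusted p 0.1714 in edgeR). AGASAC 5 had the highest level at 44.3 CPM and also the highest sum of skeletal muscle markers, 824 CPM. The other AGASAC had sums of 7.68 to 377 CPM. AGASAC 11 was lowest in both, with 6.48 CPM of TNFRSF12A. Tumors 2 and 4, with the next highest sums of 377 and 342 CPM, had 11.7 and 9.68 CPM of TNFRSF12A, below the median. Tumor 1, with a sum of 23.0 CPM, had 20.9 CPM of TNFRSF12A. The part of muscle in these levels was not tested. Without AGASAC 5 the log2FC was −0.75 ± 0.31 (adjusted p 0.5302). Within extraction batch 6 the log2FC was 0.41 ± 0.51, of the opposite sign. The ligand gene TNFSF12 was at 9.59 ± 7.52 CPM (SD, n = 10) in HGA and 16.3 ± 8.71 CPM (SD, n = 11) in AGASAC and was not called (log2FC −0.76 ± 0.44, adjusted p 1).

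The scaling of the libraries touched the genes near the thresholds. With library size alone in place of TMM, the median log2FC of all genes moved from −0.03 to −0.33, and 32.8% instead of 50.2% of the called genes were higher in HGA. TNFRSF12A (−1.39, adjusted p 0.02621) and TNFRSF1A (−1.01, adjusted p 0.005739) were then called, but relative to the shifted median they were at −1.06 and −0.68.

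**Figure D2:**
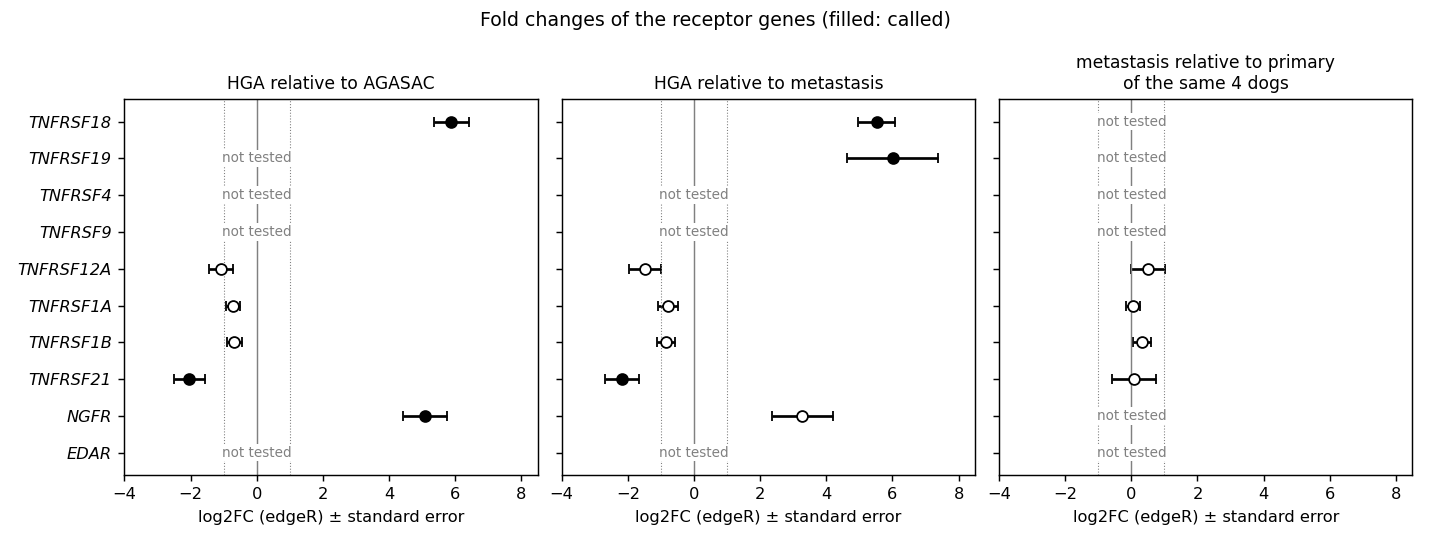
log2FC of the tested receptor genes with standard error on the horizontal axis, for HGA versus AGASAC (10 and 11 samples), HGA versus metastasis (10 and 4) and metastasis versus primary tumor of the same dogs (4 and 4); filled points were called, open points were not, and dotted lines mark a log2FC of −1 and 1. TNFRSF18 is near 5.9 and 5.5 in the comparisons with HGA, TNFRSF21 is near −2 in both, and no gene is called between metastasis and primary tumor.

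Genes whose profile came closest to those of the called receptors were searched among the 10813 other tested genes with a symbol, by the root mean square difference of centered log2(CPM + 1) over the 25 samples. For TNFRSF18 these were ARHGAP25 (0.687), SCARB1 (0.764) and TNS4 (0.793). NGFR had PERP (1.02), PLEK2 (1.05) and DLK2 (1.1), and TNFRSF21 had RNF144A (0.81), KDELR3 (0.822) and SLC38A2 (0.824). Since HGA and AGASAC differed in many genes, this likeness is largely the difference between the groups.

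Each of the 4 metastases has its own primary tumor in the data, and this comparison asked whether the receptors differ by tumor site. Of the 10 genes, 4 passed the filter and 0 were called, against 0% of the 12629 tested genes, of which 145 (1.15%) had an unadjusted p under 0.05 in edgeR. The levels of metastases and primary tumors overlapped in 9 receptor genes, with EDAR at 0 in both, and did not overlap in 1.17% of all tested genes. DESeq2 called 5 genes and the fit with dog as a block 1 gene, with none of the receptors among them. The smallest p that an exact permutation test of 4 against 4 samples can give is 0.0286.

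TNFRSF21 kept its rank from dog to dog at the ends of its range. It was at 333 CPM in the primary tumor and 357 CPM in the metastasis of dog 1, at 205 and 141 CPM in dog 2, at 48.6 and 53.3 CPM in dog 3, and at 85.7 and 155 CPM in dog 4. Dog 1 was highest and dog 3 lowest at both sites, and the difference between sites was 0.07 ± 0.66 (log2FC, adjusted p 1 in edgeR) and changed sign with the sample left out. TNFRSF1A (0.05 ± 0.21), TNFRSF1B (0.32 ± 0.27) and TNFRSF12A (0.51 ± 0.52) were likewise not called (adjusted p 1 in edgeR). The fits of TNFRSF21 and of these genes ignored the pairing by dog, so their errors include the spread between dogs. With dog as a block, none of them was called. TNFRSF12A was at 34.9 CPM in metastasis 4 against 9.68 CPM in its primary tumor, while the skeletal muscle markers summed to 1.59 CPM in that metastasis and 342 CPM in the primary tumor.

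NGFR was higher in the metastasis in 4 of 4 dogs. It was at 1.28 CPM in the metastasis and 0 in the primary tumor of dog 1, at 1.05 and 0.65 CPM in dog 2, at 4.76 and 1.17 CPM in dog 3 and at 14.0 and 4.15 CPM in dog 4. The levels were low and the groups overlapped, and the means of log2(CPM + 1) differed by 1.11 (exact permutation test, two-sided, p = 0.2, adjusted p 0.9144). That test ignores the pairing by dog, and an exact sign-flip permutation within the dogs, added after the values were seen, gave p = 0.125, the smallest that 4 dogs allow. TNFRSF18 was higher in 3 of 4 dogs, with at most 2.90 CPM (11 counts) in metastasis 2, and its difference was 0.64 (exact permutation test, p = 0.2286, adjusted p 0.9144, and p = 0.375 paired by dog). Beside these values, the T-cell marker sums were higher in the metastasis in 4 of 4 dogs, and the skeletal muscle sums were 15.2 to 377 CPM in the primary tumors and 1.59 to 2.55 CPM in the metastases. Their part in the levels of NGFR and TNFRSF18 was not tested. TNFRSF19 reached at most 0.952 CPM in a metastasis, TNFRSF4 at most 1.27 CPM and TNFRSF9 at most 2.54 CPM, with exact permutation p of 0.4857, 1 and 0.6857.

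**Figure D3:**
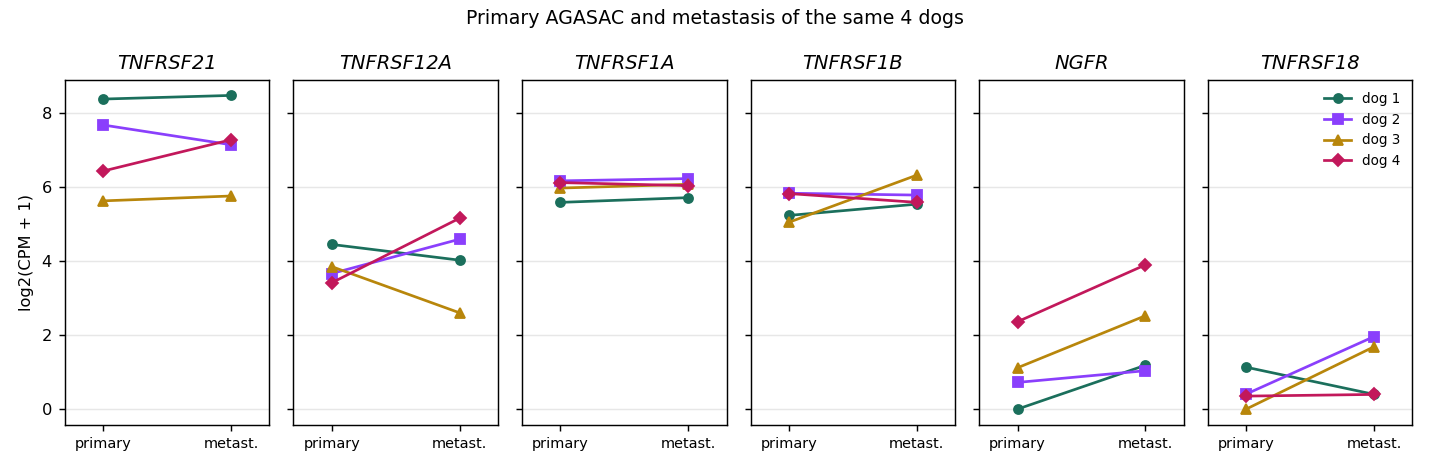
Level, as log2(CPM + 1) on the vertical axis, of 6 receptor genes in the primary AGASAC and the metastasis of dogs 1 to 4, with a line for each dog. The TNFRSF21 lines of dogs 1 and 3 run nearly level at the top and bottom of its range, and all 4 NGFR lines rise, from 0 to 4.15 CPM in the primary tumors to 1.05 to 14.0 CPM in the metastases.

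HGA versus metastasis shares its HGA samples with HGA versus AGASAC, and its metastases come from dogs of that comparison, so its values stand beside the former and are not independent of them. Of 7 tested receptor genes, 3 were called, against 16.1% of 13195 tested genes, with TNFRSF18 and TNFRSF19 higher in HGA (8.4% of all tested genes) and TNFRSF21 lower (7.69%). TNFRSF18 and TNFRSF19 passed the filter through their counts in HGA, so these shares too are a description only. TNFRSF18 was the one receptor whose groups did not overlap, as was the case for 16.2% of all tested genes. Its metastases ranged from 0.317 to 2.90 CPM, and the log2FC was 5.52 ± 0.55 with an adjusted p of 1.721e-05 in edgeR, called with each of the 14 samples left out.

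The other calls depended on which samples entered the fit. TNFRSF19 had a log2FC of 6.00 ± 1.37 (adjusted p 0.03133 in edgeR), which lost its call without HGA 3 (adjusted p 0.05028) or without metastasis 1, 2, 3 or 4 (adjusted p 0.1088 to 0.125). TNFRSF21 had a log2FC of −2.17 ± 0.51 (adjusted p 0.03846), which kept its call only without HGA 1, HGA 2, HGA 9 or metastasis 3, while with any other sample left out the adjusted p was 0.0506 to 0.3783. NGFR, called against the primary tumors, had a log2FC of 3.27 ± 0.92 and was not called against the metastases (adjusted p 0.1215), which reached 14.0 CPM and overlapped HGA 3, HGA 7 and HGA 10. It was called when HGA 10 was left out (3.43 ± 0.85, adjusted p 0.04883) and by DESeq2 (3.24 ± 0.76, adjusted p 0.001553). TNFRSF12A (−1.49 ± 0.48, adjusted p 0.2555), TNFRSF1A (−0.79 ± 0.30, adjusted p 0.588) and TNFRSF1B (−0.85 ± 0.28, adjusted p 0.2806) were not called. With library size alone the median log2FC of all genes moved from 0.02 to −0.26, 36.3% instead of 52.2% of the called genes were higher in HGA, and TNFRSF1B was also called (−1.14, adjusted p 0.04904).

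Around the receptors, the other genes of the pathway were counted from lists of receptors, ligands, adaptors and NF-κB genes. In HGA versus AGASAC, 1 of 6 tested receptors outside the 10 above and 2 of 5 tested ligands were called, all lower in HGA (12.5% of all tested genes), and 4 of 20 tested adaptors and co-receptors were called, all higher (12.6%). TRAF5 and CASP8 passed the filter through their counts in HGA, and TNFSF13 through its counts in AGASAC. These shares are therefore a description only. The median log2FC of all 12070 tested genes was −0.03.

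Of 17 other receptors of the family, 14 were found by symbol and 6 passed the filter, with a median log2FC of −1.05. TNFRSF14, a receptor that regulates lymphocytes, was the one called, lower in HGA. It was at 11.8 ± 6.98 CPM (SD, n = 10) in HGA and 37.5 ± 14.6 CPM (SD, n = 11) in AGASAC (log2FC −1.65 ± 0.30, adjusted p 0.0008015 in edgeR). LTBR, CD40, TNFRSF6B, FAS and TNFRSF13C were tested and not called, with log2FC from −1.45 to 0.32. Against the metastases TNFRSF14 (−1.59 ± 0.37) and RELT (−3.51 ± 0.79) were called lower in HGA.

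Of 22 ligand genes, 5 passed the filter and 2 were called, both lower in HGA, with a median log2FC of −0.76. TNFSF10 (TRAIL), a ligand that can trigger apoptosis, was at 46.3 to 133 CPM in HGA and 130 to 480 CPM in AGASAC (log2FC −1.79 ± 0.24, adjusted p 1.346e-05 in edgeR). TNFSF13 (APRIL), a survival factor of plasma cells, was at 5.66 ± 3.78 CPM (SD, n = 10) in HGA and 35.1 ± 20.8 CPM (SD, n = 11) in AGASAC (log2FC −2.60 ± 0.43, adjusted p 0.0002793). Of the plasma cell markers, XBP1, which secretory epithelium also uses, was called lower in HGA (31.7 CPM against 453 CPM in the mean, log2FC −3.83 ± 0.26, adjusted p 4.78e-10 in edgeR), JCHAIN was not called (39.7 and 78.4 CPM, adjusted p 0.5876), and MZB1 (0.469 and 0.608 CPM) and DERL3 (0.687 and 3.07 CPM) were below the filter. Their part in the level of TNFSF13 was not tested. Against the metastases TNFSF10 was called (−1.87 ± 0.33).

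Of 25 adaptor and co-receptor genes, 20 passed the filter and 4 were called, all higher in HGA, with a median log2FC of 0.08. Besides NTRK2 and SORT1 these were TRAF5, an adaptor of several T-cell co-stimulatory receptors, with 25.9 ± 16.3 CPM (SD, n = 10) in HGA and 4.51 ± 3.94 CPM (SD, n = 11) in AGASAC (log2FC 2.50 ± 0.49, adjusted p 0.001761 in edgeR), and CASP8, the initiator caspase of death receptors, with 6.59 to 20.7 CPM in HGA and 0 to 6.19 CPM in AGASAC (log2FC 2.03 ± 0.43, adjusted p 0.004363). The CASP8 groups did not overlap, as was the case for 9.24% of all tested genes. Against the metastases NTRK2 (5.08 ± 0.71), EDARADD (3.12 ± 0.72), TRAF5 (3.01 ± 0.51) and SORT1 (1.78 ± 0.32) were called higher in HGA.

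Of 16 NF-κB subunits, kinases and inhibitors, 15 passed the filter, with a median log2FC of 0.39. Of these, 1 was called, higher in HGA (12.6% of all tested genes). NFKBIA, which encodes the inhibitor IκBα and is itself induced by NF-κB, was at 447 to 1869 CPM in HGA and 92.1 to 426 CPM in AGASAC (log2FC 2.11 ± 0.27, adjusted p 7.83e-06 in edgeR). The subunit gene RELA was lower in HGA (log2FC −0.96 ± 0.15, adjusted p 0.0001187) and the kinase gene CHUK higher (0.97 ± 0.25, adjusted p 0.02507). Both just missed the fold threshold. The RELA groups did not overlap, as was the case for 9.24% of all tested genes. Against the metastases 0 of 15 were called in edgeR, where 16.1% of all tested genes were called.

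Of 16 NF-κB target genes, 9 passed the filter, with a median log2FC of −0.80. Of these, 1 was called higher in HGA (12.6% of all tested genes) and 4 were called lower (12.5%). SOD2, the mitochondrial superoxide dismutase, was higher in HGA, with 302 to 556 CPM against 89.5 to 185 CPM (log2FC 1.75 ± 0.16, adjusted p 6.868e-08 in edgeR). The genes called lower were the chemokines CXCL10 (log2FC −3.41 ± 0.78, adjusted p 0.009779), CCL5 (−3.07 ± 0.56, adjusted p 0.0008712) and CCL2 (−1.74 ± 0.41, adjusted p 0.01277), which attract immune cells, and IRF1, an interferon-induced transcription factor (−2.24 ± 0.34, adjusted p 8.176e-05). In HGA the means of CXCL10 and CCL5 were 1.62 and 3.14 CPM, against 16.7 and 26.8 CPM in AGASAC. Their counts in AGASAC carried them past the filter, so the share called lower is a description only. SOD2 (1.80), CXCL10 (−3.95), CCL5 (−3.06), CCL2 (−2.23) and IRF1 (−2.40) were also called against the metastases.

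**Figure D4:**
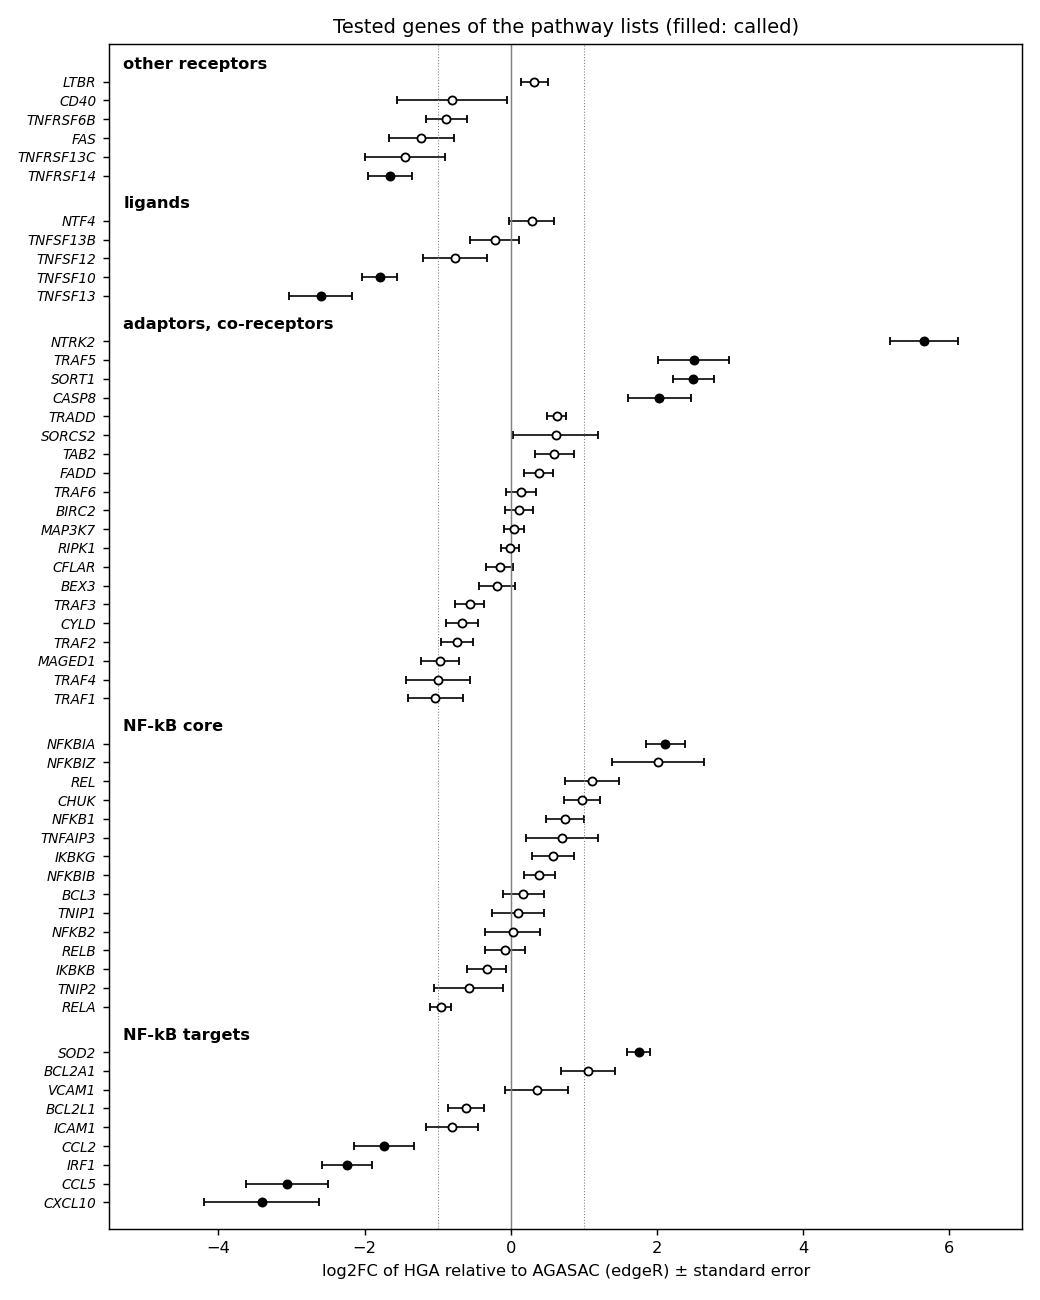
log2FC of HGA relative to AGASAC with standard error on the horizontal axis, for every tested gene of the lists of other receptors, ligands, adaptors and co-receptors, NF-κB core genes and NF-κB target genes; filled points were called, and dotted lines mark −1 and 1. The called genes among other receptors and ligands lie left of 0, the called adaptors and co-receptors right of it, and the called NF-κB targets on both sides.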

How the data were processed

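QuantSeq 3′ reads of 10 HGA, 11 primary AGASAC and 4 metastases were trimmed with Cutadapt and aligned with STAR to CanFam 3.1 by the authors, per the labels and the study's methods. The authors deposited raw read counts per gene, made with featureCounts in 2 rounds with 3′ ends extended by 2 kb and multi-mapped reads spread evenly, which can blur close paralogs. The versions of these tools are not given in the sources used here. The table's 25 columns of normalized per-sample values and the authors' fold changes and p-values were not used, and genes listed by LOC number alone were not searched for receptors.

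Analysis of the deposited counts used edgeR 4.0.16 in R 4.3.3: filterByExpr (minimum count 10, minimum total count 15), TMM, and the quasi-likelihood F test on the samples of each comparison without covariates, with Benjamini-Yekutieli adjustment. The standard error of a log2FC is its size over the square root of F. CPM with factors over all 25 libraries are given throughout. Genes below the filter were tested by two-sided permutation of log2(CPM + 1), exact where a group had fewer than 10 samples and otherwise from 100000 resamples (SciPy 1.17.1). The edgeR test was tested on simulated data. Alternatives were DESeq2 1.42.0, RLE or library size, no filter, Benjamini-Hochberg adjustment, a pseudocount of 0.5, subsets by neuter status, extraction batch or file naming series, replicate blocks, and samples left out in turn. Extraction batches and file names come from the study's supplement.

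The metastasis and primary tumor of a number come from the same dog, and their deviations from the group means correlated at 0.425 to 0.723 in 4 of 4 dogs. No libraries of a group agreed within sampling noise (chi-square per degree of freedom at least 13.5). All 10 receptors, the marker genes whose sums are given, and the pathway genes that were called or are ligands of a receptor were named by rule, with further pathway genes named after their values were seen. Values of some pathway genes are not reported here. The receptors and gene lists were chosen with earlier results of these data known.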

Additional observations from a re-analysis of the deposited data

Results flagged for a closer look

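Receptor levels in HGA and in the metastases were tested for a sample far from the rest by Dixon's ratio. The primary AGASAC were not tested in this way. Of 19 sets of levels tested, 4 passed the critical value, each in a different HGA. About 1 in 20 such sets would pass by chance alone, and levels at or near 0 in most samples make the ratio large. TNFRSF19 was at 209.6 CPM in HGA 10, against 0 to 47.8 CPM in the other HGA. EDAR was at 3.59 CPM in HGA 1, against at most 0.303 CPM in the others. TNFRSF4 was at 6.27 CPM in HGA 4, the shallowest library, against at most 1.31 CPM in the others. TNFRSF9 was at 5.05 CPM in HGA 8, against at most 1.73 CPM in the others. HGA 8 also had the highest T-cell marker sum among the HGA (57.2 CPM). HGA 2, with the next highest sum (48.0 CPM), had 0 counts of TNFRSF9. The part of T cells in this gene's level was not tested.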

How the results depend on the processing

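Of 513 alternative values for single receptor genes, 464 kept their direction and their side of the thresholds. In HGA versus AGASAC, leaving out each tumor gave 2828 to 3373 called genes and 3 to 4 called receptors. All genes called fell from 3032 to 1738 in neutered dogs and to 262, 637 and 338 within extraction batches 5, 6 and 8, with 1 receptor called in each batch and fewer samples in each fit, and 5 receptors were called with library size. DESeq2 called 4508 genes. TNFRSF12A turned to 0.41 within batch 6. TNFRSF21 was also not called within file naming series A (−2.24, adjusted p 0.07447).

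Between metastases and primary tumors, DESeq2 called 5 genes and the fit with the dog as replicate block 1, where the main test called 0, and the block changed the call of none of the 4 receptors tested. For the 5 receptors below the filter, pairing by dog in an exact sign-flip permutation, added after the data were seen, gave p of 0.125 to 1, where 0.125 is the smallest possible. With a sample left out, TNFRSF21 ranged from −0.51 to 0.64, TNFRSF1A from −0.062 to 0.15, TNFRSF4 from −0.24 to 0.15 and TNFRSF9 from −0.70 to 0.041, and a pseudocount of 0.5 put TNFRSF4 at −0.069.

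In HGA versus metastasis, 2124 genes were called, 3211 with DESeq2 and 3536 with 5 receptors under Benjamini-Hochberg adjustment. Samples left out gave 1543 to 2588 genes, 1 to 3 receptors, TNFRSF4 at −0.00079 to 0.39 and TNFRSF9 at −0.43 to 0.18. The cause of these changes was not tested.

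Replicate numbers shared by HGA and AGASAC (correlations −0.051 to 0.0354) or metastases (−0.0401 to −0.00412) did not pair the samples, and 0 samples correlated best with their own number. With these numbers as replicate block, 2543 genes and 2 receptors were called against AGASAC and 662 genes and 2 receptors against the metastases, with TNFRSF21 not called in either (−1.85, adjusted p 0.07113, and −1.75, adjusted p 0.8206).

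Depth limits TNFRSF4, TNFRSF9 and EDAR in all groups, and TNFRSF18, TNFRSF19 and NGFR in AGASAC, where a few counts set the level.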
